A study of Homo sapiens with 9 samples.

Results

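Acute phase plasma proteins are made by the liver and released into blood in amounts that shift when the body meets infection or injury. The 10 genes described here encode haptoglobin (HP), hemopexin (HPX), the orosomucoids ORM1 and ORM2, the serum amyloid A proteins SAA1 and SAA4, alpha-1-antichymotrypsin (SERPINA3), lipopolysaccharide binding protein (LBP), ceruloplasmin (CP) and inter-alpha-trypsin inhibitor heavy chain 4 (ITIH4). They were taken by gene symbol from a table of 19317 genes, with earlier results of these data known, and all 10 were in it. In the classical scheme interleukin 6 binds its receptor IL6R and the shared subunit gp130 (IL6ST), which activates JAK kinases and the factor STAT3, while interleukin 1 and TNF act through NF-kB and C/EBP factors. SOCS3 is induced by STAT3 and damps the pathway. Most of these genes also need factors of the hepatocyte, such as HNF4A, for their basal expression.

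The cells were HepG2, an established line grown from a human hepatocellular carcinoma, and all samples carry the genotype label WT. In DNL, a model of de novo lipogenesis, the medium was DMEM, and insulin (10 µg/ml) and T0901317 (10 µM), a synthetic agonist of the liver X receptors, were present for 1 week. In OA, cells received DMEM with 25 µM oleic acid, which was dissolved in 11% bovine serum albumin, for 6 hours. In WT, the control, cells were kept in RPMI. Each group had 3 samples, and all media contained 10% serum and 1% antibiotics. No group received albumin alone or plain DMEM, so the effects of medium, compound, carrier and duration cannot be told apart. As a model of liver, the cultures hold a single transformed line, by their labels.

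Levels are estimated counts scaled to a common library total (CPM), adjusted by TMM factors so that the bulk of genes match between libraries, from total RNA depleted of ribosomal RNA. Library totals ranged between 16447398 and 36147431 for DNL, between 7836520 and 28636903 for OA, and between 26425694 and 43043347 for WT. The 10 hepatocyte marker genes, including ALB and APOA1, summed to 70787 to 72666 CPM in DNL, 13539 to 15440 CPM in OA and 42404 to 43985 CPM in WT, and none of them was at 0. APOB alone gave 48462 to 49973, 8244 to 9623 and 29321 to 30820 CPM of these sums. Of the 10 markers 8 were called higher and 2 (HNF4A and ASGR1) lower in DNL against WT, and 0 higher and 9 lower in OA against WT. Several of these markers are counted again in the lists below, so the counts are not separate results. Among them are SERPINA1 and FGB (positive acute phase list), ALB, APOA1 and AHSG (negative list) and HNF4A (hepatocyte transcription factors). Of all tested genes 27.1% were called higher and 26.8% lower in DNL, and 30.4% and 29.7% in OA, against WT. Leukocyte and Kupffer cell markers summed to 35.9 to 41.7, 40.1 to 53.3 and 42.9 to 45.02 CPM in the 3 groups, with CD163, MARCO, CD3E and MS4A1 at 0 in all samples. Most of that sum was CD68, at 29.9 to 33.6, 39.5 to 52.8 and 39.4 to 41.6 CPM, while CD14 rose by 1.16 in DNL and fell by 3.31 in OA against WT on the log2 scale. Stellate cell and fibroblast markers summed to 92.6 to 94.0 CPM in DNL and 73.3 to 79.7 CPM in WT, but to 86.3, 186 and 802 CPM in OA replicates 1, 2 and 3. COL1A1 was at 19.4, 85.0 and 536 CPM in these, and at no more than 0.993 CPM in DNL and WT. COL3A1 was at 2.49, 9.35 and 66.8 CPM in these, and at no more than 0.216 CPM in DNL and WT. Both were called higher, and PDGFRB and LRAT lower, in OA against WT. Endothelial markers were at 7.26 to 8.32, 3.60 to 7.83 and 1.76 to 2.54 CPM, and cholangiocyte markers at 987 to 1092, 899 to 1058 and 525 to 543 CPM, in DNL, OA and WT. The cholangiocyte marker KRT7 was at 0 in all DNL and WT samples, and at 0.474, 1.48 and 8.18 CPM in OA. In OA against WT KRT19, SPP1 and KRT7 were called higher and SOX9 lower. In DNL against WT all 3 tested endothelial markers and 4 of the 5 tested cholangiocyte markers were called higher and 0 lower. PDGFRB was called lower there. The part of these marker shifts in the members' results was not tested.

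The members split in DNL and moved together in OA. CP, SERPINA3 and HPX were higher in DNL than in WT, by 6.60-fold, 3.44-fold and 3.02-fold, while HP, ORM1, ORM2 and SAA4 were lower by 1.77-fold to 2.31-fold. All 7 were lower in OA than in WT, by 1.51-fold for HPX up to 10.4-fold for HP, and all 7 were higher in DNL than in OA. LBP, SAA1 and ITIH4 had too few counts to be tested. In bulk RNA, fewer cells expressing a gene and less of its RNA per cell cannot be told apart.

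**Figure D1:**
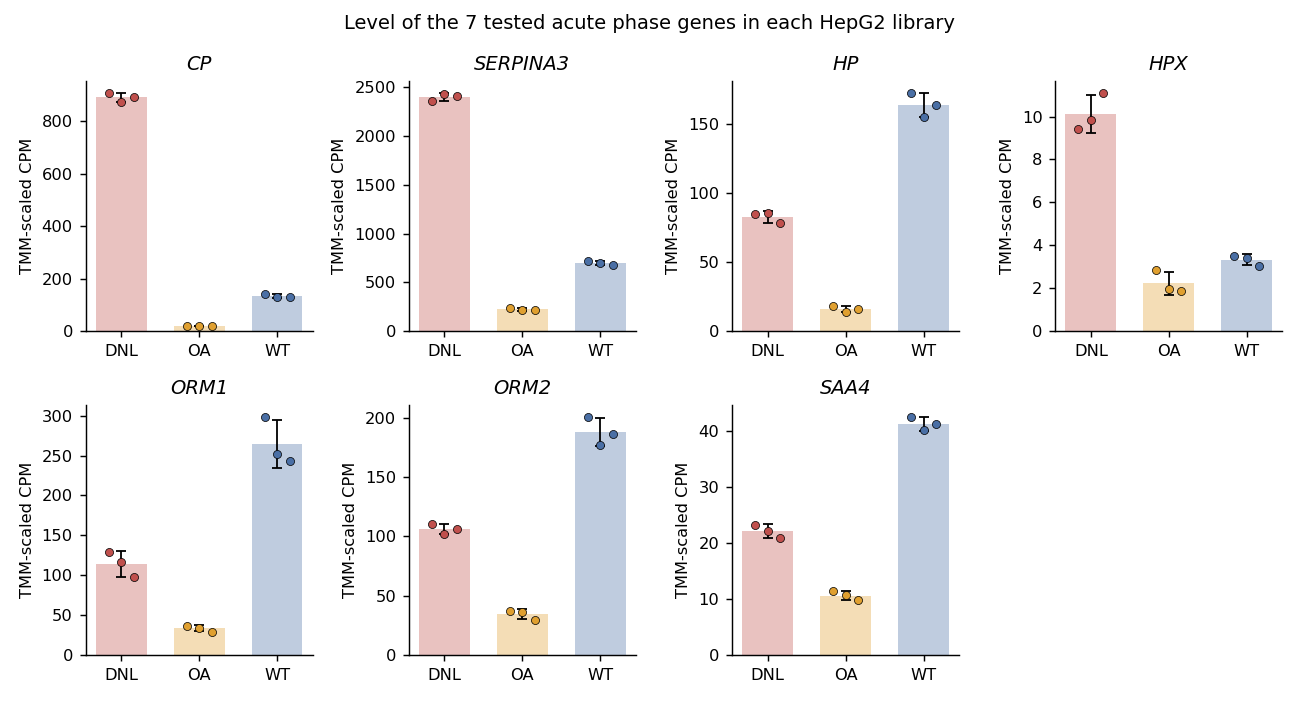
Level of the 7 tested members in TMM-scaled CPM on linear axes that start at 0, 1 panel per gene; points are samples, bars are means and error bars are SD over the 3 samples of DNL, OA and WT. CP, SERPINA3 and HPX are highest in DNL, HP, ORM1, ORM2 and SAA4 are highest in WT, and OA is lowest in every panel.

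CP, the copper-carrying ferroxidase of plasma (ENSG00000047457, chromosome 3, 149162410 to 149222055, minus strand), spanned the widest range. It measured 906, 873 and 893 CPM in DNL, 20.7, 19.8 and 18.5 CPM in OA, and 143, 131 and 131 CPM in WT. The 3 groups did not overlap, with DNL above WT and OA below it. The log2 fold change was 2.72 in DNL against WT (SE 0.0460, adjusted p = 3.61e-13, edgeR's quasi-likelihood test with Benjamini-Hochberg adjustment over 13636 genes), with a 95% interval of 2.62 to 2.82. In OA against WT it was -2.77 (SE 0.0543, adjusted p = 1.60e-12). In DNL against OA CP differed by 5.49 on the log2 scale (95% interval 5.37 to 5.62), and 0.293% of all tested genes were as far or further above 0. CP overlaps HPS3 on the opposite strand.

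SERPINA3, a serine protease inhibitor that acts on cathepsin G and mast cell chymase (ENSG00000196136, chromosome 14, 94612377 to 94624055, plus strand), held most of the summed counts of the members in DNL and OA. It measured 2357, 2436 and 2413 CPM in DNL, 240, 220 and 216 CPM in OA, and 719, 695 and 682 CPM in WT. Again DNL lay above and OA below WT with no overlap. The log2 fold change was 1.78 in DNL against WT (95% interval 1.69 to 1.87, adjusted p = 5.23e-12) and -1.63 in OA against WT (95% interval -1.73 to -1.54, adjusted p = 1.51e-11). SERPINA3 shares no 31-base sequence with a protein-coding transcript of another gene in GENCODE release 29, and neither does CP. Other types of transcript were not searched. SERPINA3 overlaps AL049839.2, listed as a protein-coding gene, on the same strand, and a split of reads between them was not tested.

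HP and HPX bind the products of broken red cells: HP captures free haemoglobin and HPX captures free haem. HP (ENSG00000257017, chromosome 16, 72054592 to 72061055, plus strand) measured 85.1, 86.1 and 78.1 CPM in DNL, 18.6, 13.9 and 15.8 CPM in OA, and 173, 156 and 164 CPM in WT. Both treated groups lay below WT without overlap, and OA lay below DNL. HP overlaps TXNL4B on the opposite strand. HP fell by 0.98 on the log2 scale in DNL against WT (SE 0.0778, adjusted p = 3.11e-07) and by 3.38 in OA against WT (SE 0.0926, adjusted p = 1.91e-11). Of HP's 31-base sequences, 27.9% also occur in HPR, the haptoglobin-related gene 2.09 kb away, whose counts may take some HP reads. HPR measured 9.06 ± 0.906 CPM in DNL, 1.27 ± 0.184 CPM in OA and 12.6 ± 0.750 CPM in WT (SD, n = 3 each), and fell in both treatments, by 0.48 (adjusted p = 0.00949) and 3.24 (adjusted p = 4.93e-09) on the log2 scale.

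HPX (ENSG00000110169, chromosome 11, 6431049 to 6442617, minus strand) went the other way in DNL. It measured 9.42, 9.82 and 11.1 CPM in DNL, 2.86, 1.95 and 1.88 CPM in OA, and 3.52, 3.41 and 3.06 CPM in WT. All DNL samples lay above all WT samples, while the highest OA sample lay just under the lowest WT sample. HPX rose by 1.60 on the log2 scale in DNL against WT (SE 0.180, adjusted p = 7.66e-06). Its fall of 0.59 in OA against WT (SE 0.199, adjusted p = 0.0209) was the smallest of the members, and it did not pass the threshold without OA replicate 2 (-0.47, adjusted p = 0.103) or without WT replicate 1 (-0.54, adjusted p = 0.0620). The ratio of HP to HPX counts averaged 8.28 ± 1.09 for DNL, 7.36 ± 0.986 for OA and 49.4 ± 4.03 for WT (SD, n = 3 each).

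ORM1 and ORM2 encode the alpha-1-acid glycoproteins, plasma carriers of basic and neutral drugs. The genes lie in tandem on the plus strand of chromosome 9, ORM1 (ENSG00000229314) at 114323056 to 114326475 and ORM2 (ENSG00000228278) at 114329869 to 114333252, 3.39 kb apart. Their coding sequences of 603 bases are 94.9% identical, with 31 differences. The stretch from base 346 to base 405 holds 14 of these, in capitals, and is shown because reads over such places are what tells the copies apart.
ORM1: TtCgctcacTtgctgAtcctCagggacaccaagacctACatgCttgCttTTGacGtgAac
ORM2: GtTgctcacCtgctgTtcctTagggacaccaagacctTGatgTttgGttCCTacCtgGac
The copies share 56.1% of the 31-base sequences of ORM1 and 59.3% of those of ORM2, so the split of reads between them is uncertain.

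ORM1 measured 129, 117 and 97.1 CPM in DNL, 36.7, 34.2 and 29.03 CPM in OA, and 299, 252 and 243 CPM in WT. ORM2 measured 110, 102 and 106 CPM in DNL, 37.2, 36.4 and 29.2 CPM in OA, and 201, 177 and 186 CPM in WT. For both copies the order was WT above DNL above OA, with no overlap. ORM1 fell by 1.21 in DNL (SE 0.118, adjusted p = 2.03e-05) and by 2.98 in OA (SE 0.133, adjusted p = 6.61e-08), against WT on the log2 scale. ORM2 fell by 0.82 in DNL (SE 0.0726, adjusted p = 8.50e-07) and by 2.44 in OA (SE 0.0803, adjusted p = 8.88e-11). Together the copies, whose sum does not depend on the split, measured 220 ± 17.8 CPM in DNL, 67.6 ± 8.21 CPM in OA and 452 ± 40.9 CPM in WT (SD, n = 3 each). ORM1 made up 51.7% ± 3.43, 49.3% ± 0.772 and 58.4% ± 1.60 of that sum. The share was lower in all samples of both treatments than in any WT sample, with an exact two-sided permutation p of 0.1 for each, the smallest that 3 against 3 allows.

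The serum amyloid A genes lie together on chromosome 11. SAA4, a constitutive apolipoprotein of high-density lipoprotein (ENSG00000148965, 18231349 to 18236893, minus strand), measured 23.2, 22.2 and 20.9 CPM in DNL, 11.4, 10.7 and 9.77 CPM in OA, and 42.5, 40.1 and 41.2 CPM in WT. The 3 groups did not overlap. SAA4 fell by 0.90 in DNL against WT (SE 0.0787, adjusted p = 7.38e-07) and by 1.95 in OA against WT (SE 0.0865, adjusted p = 1.07e-09) on the log2 scale. It overlaps the readthrough gene SAA2-SAA4 on the same strand and shares 64.4% of its 31-base sequences with it, but that gene was listed at only 0.235, 0.0892 and 0.806 CPM on average in DNL, OA and WT. SAA1, the inducible form (ENSG00000173432, 18266174 to 18269977, plus strand), had 0 counts in all 9 samples, which allows up to 0.0419 CPM in DNL, 0.0583 CPM in OA and 0.0300 CPM in WT for counting error alone. SAA1 shares 53.2% of its 31-base sequences with SAA2, which had 11, 2 and 26 counts over the samples of DNL, OA and WT and was not tested.

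LBP, which hands bacterial lipopolysaccharide to CD14 (ENSG00000129988, chromosome 20, 38346356 to 38377023, plus strand), had 0, 1 and 0 counts in DNL, 1, 0 and 1 in OA, and 9, 5 and 6 in WT. Scaled for depth, the ratio of summed counts was 0.0699 in DNL against WT (exact 95% interval 0.00169 to 0.437) and 0.194 in OA against WT (exact 95% interval 0.0220 to 0.801), for counting error only. ITIH4, a plasma kallikrein substrate that does not carry the bikunin chain of its relatives (ENSG00000055955, chromosome 3, 52812975 to 52831479, minus strand), had 7, 12 and 12 counts over DNL, OA and WT, and nearly all of those in OA and in WT came from replicate 2. ITIH4 overlaps AC006254.1 on the same strand and ITIH4-AS1 on the opposite one, and no direction was read from its counts.

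In DNL against WT, 3 tested members were called higher and 4 lower at an adjusted p under 0.05 (edgeR), where 27.1% of all 13636 tested genes were called higher and 26.8% lower. All 7 were thus called, against 53.8% of all genes, and all 7 had groups that did not overlap, against 64.7%. CP, SERPINA3 and HPX were called higher by at least 2-fold, against 7.21% of all genes, and ORM1 was the 1 member lower by at least 2-fold, against 5.07%. The median log2 fold change of the 7 was -0.82, and that of all genes -0.02. Of all calls 50.3% were higher, or 32.2% with library totals in place of TMM, which put the median of all genes at -0.18 and changed no member's direction or call. That scaling gave -1.15 for HP and -1.07 for SAA4, so that these too were past 2-fold beside ORM1 at -1.38. In OA against WT all 7 were called lower, against 29.7% of all genes, and 6 of them, HPX being the exception, by at least 2-fold, against 7.95%. Over both directions 60% of all genes were called in OA against WT, with 30.4% higher, and 65.6% had groups that did not overlap, as all 7 members did. The median was -2.44 for the 7 and -0.03 for all genes. In OA against WT 0.367% of all tested genes were as far below 0 as HP or further, 0.557% as far as ORM1, 0.682% as far as CP and 0.975% as far as ORM2, but 19.5% as far as HPX.

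**Figure D2:**
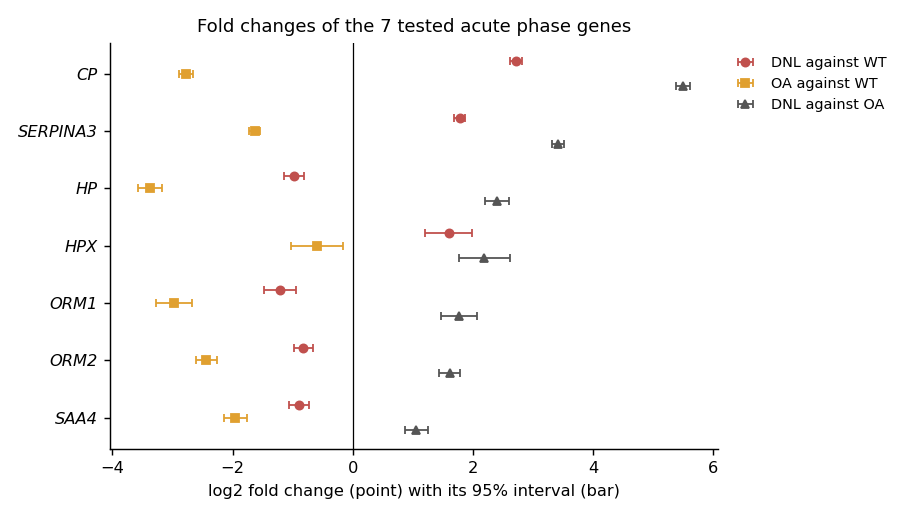
Log2 fold change (horizontal axis) of the 7 tested members, with 95% intervals as bars, for DNL against WT (circles), OA against WT (squares) and DNL against OA (triangles). CP, SERPINA3 and HPX are above 0 and the other 4 below 0 in DNL against WT, all 7 are below 0 in OA against WT, and all 7 are above 0 in DNL against OA.

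DNL against OA compares the treatments directly, and it is also the test of whether their differences from WT are the same, since both share the WT samples. All 7 tested members were called higher in DNL, against 31.9% of all genes (62.8% were called in either direction and 30.9% lower), and all by at least 2-fold, against 10.1%, although the interval of SAA4 extends below 2-fold. The groups did not overlap for any of the 7, as was the case for 66.2% of all genes. With library totals in place of TMM, 33.9% of all calls in DNL against OA were higher in place of 50.8%, and the 7 members were still called higher, but SAA4 at 0.82 was then under 2-fold. HP was higher by 2.39 (95% interval 2.19 to 2.59), HPX by 2.19 (1.76 to 2.62), SERPINA3 by 3.42 (3.31 to 3.52) and ORM1 by 1.77 (1.47 to 2.06) on the log2 scale. ORM2 was higher by 1.61 (1.44 to 1.79), and SAA4 had the smallest difference, 1.06 (0.86 to 1.25).

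**Figure D3:**
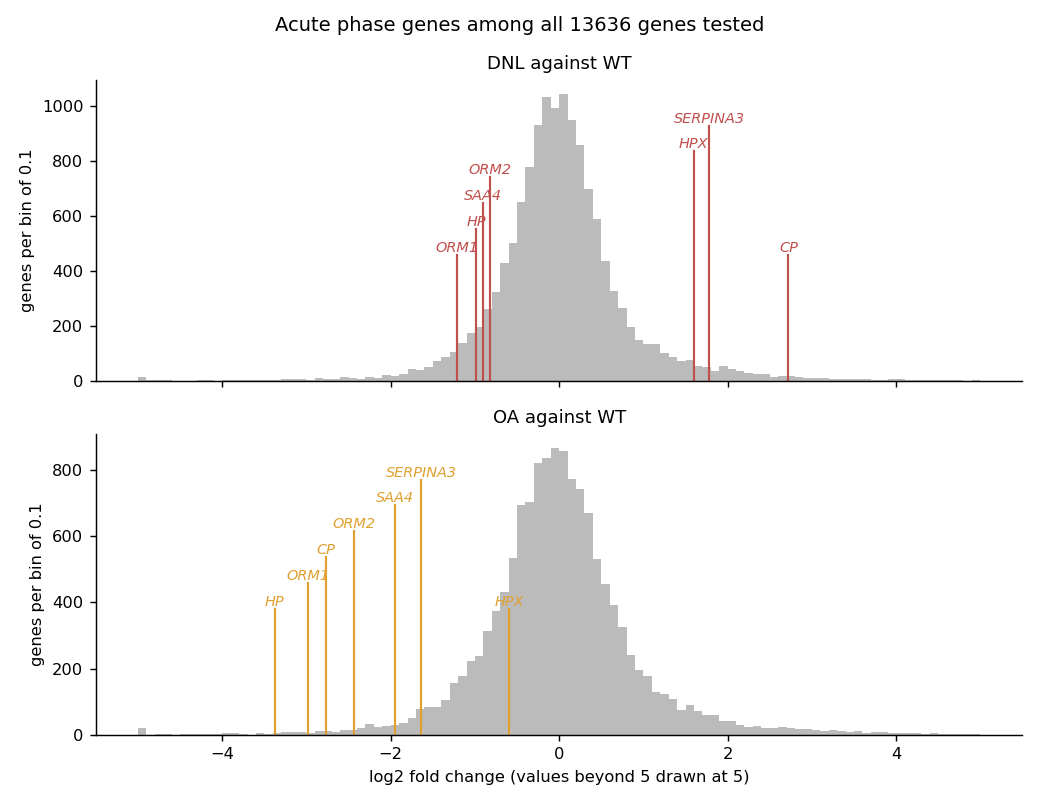
Number of genes per bin of 0.1 (grey) by log2 fold change over the 13636 tested genes, in DNL against WT (upper panel) and OA against WT (lower panel), with a vertical line at the value of each tested member; line heights only separate the names, and values beyond 5 in either direction are drawn at 5. In DNL against WT the members lie on both sides of the bulk of genes, and in OA against WT 6 lie in the lower tail while HPX, at -0.59, lies within the bulk.

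Summed over the 10 genes, the level was 3628 ± 15.3 CPM in DNL, 341 ± 23.8 CPM in OA and 1495 ± 74.4 CPM in WT (SD, n = 3 each). Of that sum SERPINA3 gave 66.2% in DNL, 66.0% in OA and 46.8% in WT, and CP gave 24.5%, 5.77% and 9.02%. Without SERPINA3 and CP the other 8 summed to 336 ± 21.7 CPM in DNL, 96.7 ± 10.4 CPM in OA and 661 ± 49.8 CPM in WT, so the order of DNL and WT turns round. Per kilobase of exon, a rough scale for comparing genes that depends on the length used, the order in DNL was SERPINA3 (568 CPM per kb), CP (190), ORM1 (142), ORM2 (140), HP (45.5), SAA4 (30.4) and HPX (6.12). In OA it was SERPINA3 (53.2), ORM2 (45.1), ORM1 (41.5), SAA4 (14.6), HP (8.80), CP (4.21) and HPX (1.35). In WT it was ORM1 (330), ORM2 (247), SERPINA3 (165), HP (89.8), SAA4 (56.8), CP (28.8) and HPX (2.02). CP was thus second in DNL and sixth in OA and WT, while the ranges of ORM1 and ORM2 overlapped in DNL and OA. With the median transcript length in place of all exons, SERPINA3 was first in WT too, at 349 CPM per kb, so the order in WT depends on the length chosen.

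Promoter windows, 250 bases upstream of the RefSeq start (GRCh38.p14), were on hand for 5 of the 10 members: HPX, ITIH4, ORM1, SAA4 and SERPINA3. GENCODE release 29 places these starts elsewhere. By its gene coordinates the HPX and ITIH4 windows lie wholly within the gene, and the other windows overlap their genes in part. A pair that rose in DNL and a pair that fell in both treatments are shown, 5′ to 3′ on the gene's strand, with motif matches in capitals. HPX is at chr11:6440988-6441237 and SERPINA3 at chr14:94612141-94612390, ORM1 at chr9:114322848-114323097 and SAA4 at chr11:18236803-18237052.
HPX: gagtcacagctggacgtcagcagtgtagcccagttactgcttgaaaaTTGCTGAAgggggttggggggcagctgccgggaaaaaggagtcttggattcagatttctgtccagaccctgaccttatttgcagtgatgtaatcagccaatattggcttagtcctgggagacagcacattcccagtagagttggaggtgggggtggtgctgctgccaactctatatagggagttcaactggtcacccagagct
SERPINA3: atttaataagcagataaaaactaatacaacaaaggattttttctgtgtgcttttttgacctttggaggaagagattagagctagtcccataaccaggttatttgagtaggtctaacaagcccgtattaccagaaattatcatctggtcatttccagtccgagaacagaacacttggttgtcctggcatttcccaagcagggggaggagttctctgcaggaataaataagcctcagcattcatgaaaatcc
ORM1: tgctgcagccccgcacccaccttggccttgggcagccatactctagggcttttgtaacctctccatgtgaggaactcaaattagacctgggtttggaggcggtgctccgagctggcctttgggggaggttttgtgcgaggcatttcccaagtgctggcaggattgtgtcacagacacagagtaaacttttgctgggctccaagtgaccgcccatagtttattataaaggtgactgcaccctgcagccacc
SAA4: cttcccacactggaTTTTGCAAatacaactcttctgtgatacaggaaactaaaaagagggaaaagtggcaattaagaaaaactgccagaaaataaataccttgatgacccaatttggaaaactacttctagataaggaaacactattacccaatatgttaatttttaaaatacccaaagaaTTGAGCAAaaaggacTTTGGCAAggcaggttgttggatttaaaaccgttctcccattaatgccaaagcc
The letters TTGCNNAA (C/EBP), searched on both strands like the rest, were found in HPX from -203 to -196 and in SAA4 at 3 places, starting at -236, -69 and -54, and in 9.05% of 35116 promoters. The SAA4 matches at -69 and -54 lie inside the gene by its GENCODE coordinates. TTCNNNGAA (STAT) was in ITIH4 from -74 to -66 and in 6.57% of promoters. GGANNTTCC (NF-kB) and CAAAGTCCA (HNF4), in 3.84% and 0.325% of promoters, were in none of the 5 windows. ORM1 and SERPINA3 had no match to any of the 4 motifs in these windows.

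A list set up as other positive acute phase genes held 18 genes, of which 15 were tested. Whether each of them rises in a human acute phase response was not tested here. Of the 15 tested, 11 were called higher and 1 lower in DNL against WT, with a median log2 fold change of 0.92. The shares of all tested genes were 27.1% and 26.8%. SERPINA1, which inhibits neutrophil elastase, measured 8137 ± 314 CPM in DNL and 2071 ± 89.2 CPM in WT, A2M was higher by 1.67 and complement C3 by 1.16 on the log2 scale. HAMP, the iron hormone hepcidin, was the 1 lower gene, with 2 summed counts in DNL and 124 in WT, a ratio of 0.0226 scaled for depth (exact 95% interval 0.00270 to 0.0832). In OA against WT 11 were called lower and 0 higher, beside 29.7% and 30.4% of all genes, with a median of -1.23. FGL1 differed by -1.97, FGB of fibrinogen by -1.68 and AGT by -1.18. In DNL against OA 13 were higher and 1, HAMP, was lower, beside 31.9% and 30.9% of all genes. CRP and APCS, the pentraxins, had 0 counts in every sample.

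**Figure D4:**
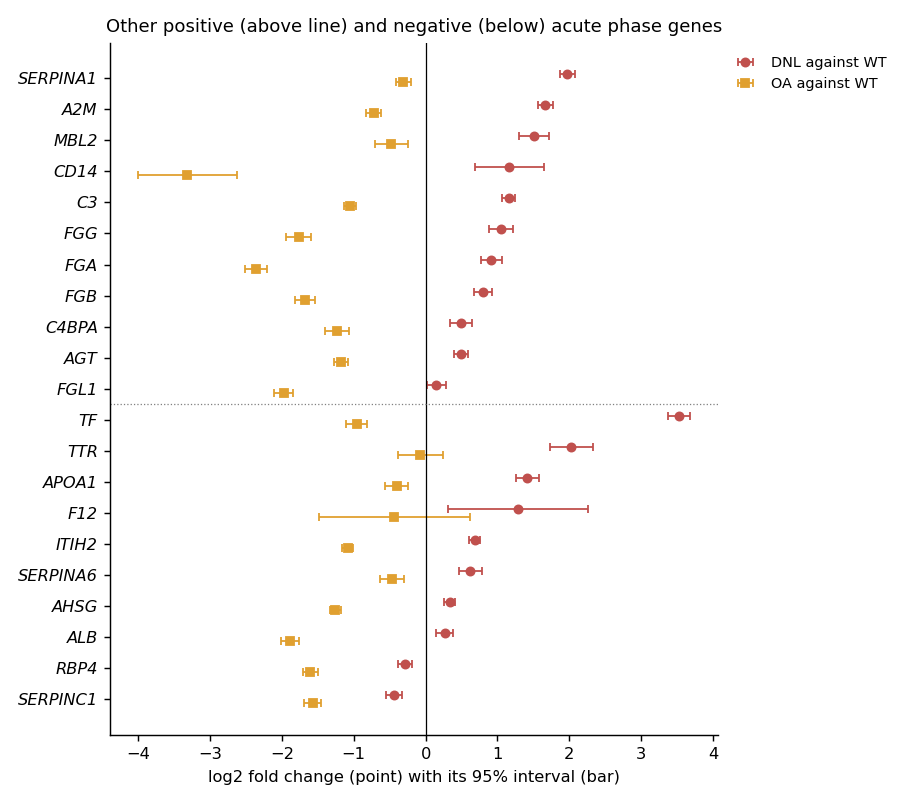
Log2 fold change (horizontal axis) with 95% intervals for genes listed as other positive (above the dotted line) and negative (below it) acute phase genes, in DNL against WT (circles) and OA against WT (squares). CFB, HAMP and SERPING1 and genes with means under 1 CPM in every group are left out, among them the 1 gene of the positive list called lower in DNL (HAMP); TF lies farthest right, at 3.53 in DNL against WT.

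A list set up as negative acute phase genes held 12 genes, of which 11 were tested. Whether each of them falls in a human acute phase response was not tested here. In DNL against WT 8 were called higher and 2 lower, beside 27.1% and 26.8% of all genes, with a median of 0.68. TF, the iron carrier transferrin, was higher by 3.53, APOA1 by 1.42 and ITIH2 by 0.68, while SERPINC1 (antithrombin) fell by 0.44 and RBP4 (retinol transport) by 0.29. In OA against WT 8 were lower and 0 higher, beside 29.7% and 30.4% of all genes, with a median of -1.09. Among the 8 were ALB at -1.89, RBP4 at -1.60 and AHSG at -1.26. In DNL against OA 10 were higher and 0 lower, beside 31.9% and 30.9% of all genes. ITIH3, a relative of ITIH4 that lies 3.96 kb from it, measured 688 ± 15.7 CPM in DNL, 58.7 ± 2.95 CPM in OA and 269.6 ± 6.51 CPM in WT (SD, n = 3 each). Of the 5 tested genes listed for the inter-alpha-inhibitor family, AMBP included, 4 were higher and 0 lower in DNL against WT. AMBP was among the 4, as was ITIH2, which the negative list also holds. For OA against WT 1 (ITIH5) was higher and 4 were lower.

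Of 9 cytokines known to drive or feed the response, IL6, OSM, IL1A, IL1B and TNF had too few counts to be tested in any comparison. Of the 4 tested cytokines, IL11 measured 11.5 ± 1.09 CPM in DNL, 174 ± 29.8 CPM in OA and 32.7 ± 1.78 CPM in WT (SD, n = 3 each), so that it fell by 1.51 in DNL (adjusted p = 2.41e-06) and rose by 2.42 in OA (adjusted p = 1.97e-08). LIF rose by 0.79 in OA. IL6R, the ligand-binding receptor of interleukin 6, measured 32.8, 29.99 and 29.6 CPM in DNL, 152, 159 and 162 CPM in OA, and 187, 187 and 191 CPM in WT. It fell by 2.61 in DNL (adjusted p = 1.03e-12) and by 0.26 in OA (adjusted p = 0.000433). IL6ST was at 362 ± 77.6 CPM in DNL, 297 ± 45.3 CPM in OA and 384 ± 36.0 CPM in WT (SD, n = 3 each) and passed the test in neither treatment (adjusted p = 0.711 and 0.117).

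SOCS3, the STAT3 target that inhibits the pathway, measured 2.31, 3.13 and 3.28 CPM in DNL, 7.89, 13.2 and 11.0 CPM in OA, and 15.4, 16.6 and 14.96 CPM in WT. It fell by 2.44 in DNL (adjusted p = 3.08e-07) and by 0.53 in OA (adjusted p = 0.0204). STAT3 rose by 0.35 in DNL (adjusted p = 8.80e-06), and its difference in OA was -0.003 (adjusted p = 0.962). CEBPB fell by 0.75 in DNL (adjusted p = 2.89e-05) with -0.21 in OA (adjusted p = 0.0598), while CEBPD had 0.23 in DNL (adjusted p = 0.312) and fell by 0.55 in OA (adjusted p = 0.0267). NFKBIA, the inhibitor of NF-kB that NF-kB induces, rose by 0.49 in DNL and 0.47 in OA. IL1R1, the interleukin 1 receptor, rose by 1.12 in DNL and by 0.22 in OA, and NR3C1, the glucocorticoid receptor, fell by 0.47 in DNL and rose by 0.23 in OA. Of the 12 receptors and kinases, 4 were higher and 4 lower in DNL against WT, and 5 and 5 in OA against WT. OSMR and TYK2 were among the higher and TNFRSF1A among the lower ones in DNL. In OA JAK1, JAK2 and TYK2 were among the higher and OSMR and IL1RAP among the lower ones. Of the 14 factors and inhibitors, 6 were higher and 5 lower in DNL, and 4 and 5 in OA. PIAS3 was higher and CEBPA lower in both treatments, while in OA RELA was among the higher and NFKBIZ and SOCS1 among the lower ones. The shares of all tested genes were 27.1% higher and 26.8% lower in DNL, and 30.4% and 29.7% in OA. No shift of these lists as a whole was read from such counts.

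**Figure D5:**
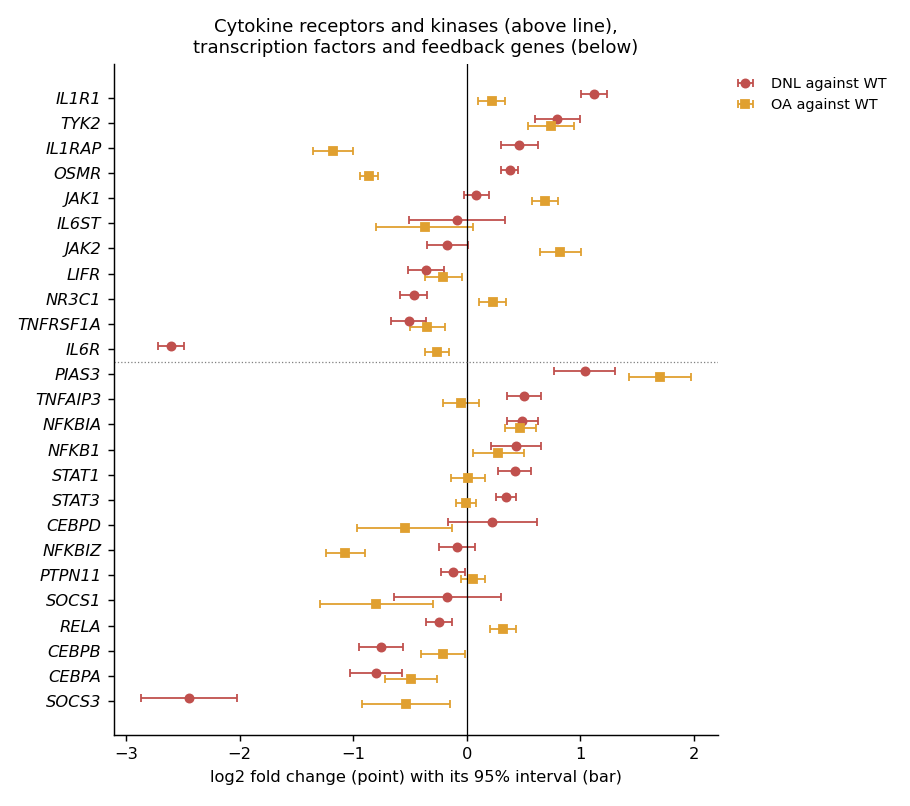
Log2 fold change (horizontal axis) with 95% intervals for cytokine receptors and kinases (above the dotted line) and for transcription factors and feedback genes (below it), in DNL against WT (circles) and OA against WT (squares); IL11RA, under 1 CPM in every group, is left out. IL6R at -2.61 and SOCS3 at -2.44 lie farthest left, both in DNL against WT.

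Of 9 hepatocyte transcription factors, 3 (NR5A2, PROX1 and FOXA2) were higher and 4 lower in DNL against WT, and 1 was higher and 7 lower in OA against WT. All tested genes gave 27.1% higher and 26.8% lower in DNL, and 30.4% and 29.7% in OA. HNF4A measured 481 ± 25.04 CPM in DNL, 257 ± 28.4 CPM in OA and 567 ± 13.6 CPM in WT (SD, n = 3 each), and fell by 0.24 in DNL (adjusted p = 0.00967) and by 1.14 in OA (adjusted p = 5.07e-08). NR1H4, the bile acid receptor, fell by 3.51 in OA, and ONECUT1 by 2.06. CREB3L3, a hepatocyte factor processed from the endoplasmic reticulum membrane, fell by 1.53 in DNL and rose by 2.22 in OA.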

How the data were processed

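Total RNA of 9 HepG2 samples went into strand-specific libraries after removal of ribosomal RNA, per the labels' protocols. The authors deposited estimated counts per gene, made with kallisto 0.48.0 on GRCh38 after FastQC 0.11.9, per the submitters' processing notes. Which annotation release and strand setting were used is not given in the sources used here. Of 19317 gene identifiers 19316 matched a symbol and 19272 matched GENCODE release 29, the source of coordinates.

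Counts were rounded, filtered with filterByExpr, scaled by TMM and tested with edgeR 4.0.16 (quasi-likelihood test, robust) in R 4.3.3, in a single fit of all 9 samples with group as the only factor. A call needed an adjusted p under 0.05 (Benjamini-Hochberg, 13636 genes). Intervals and SE derive from the F statistic. Replicates varied by 10.6% (coefficient of variation, from a common dispersion of 0.0112). A count of 3 corresponded to 0.0690 to 0.356 CPM per library, and exact intervals and floors cover counting error only. Alternatives were 3 other scalings, no low-count filter, DESeq2 1.42.0, limma 3.58.1 (voom), only the compared groups, a replicate block, leaving out each library, and summed near copies.

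The members and gene lists were chosen with earlier results of these data known. The naming rule covered all members, their near copies and up to 3 genes per direction in each list with the smallest adjusted p. It also covered IL6R, IL6ST, IL1R1, STAT3, SOCS3, CEBPB, CEBPD, NFKBIA, HNF4A, NR3C1 and ALB. Not every gene under this rule is named, and some outside it, such as CRP and APCS, are. Whether replicates came from separate cultures is not in the labels, and p-values reflect only how far these samples vary, possibly for technical reasons. Replicate libraries differed by more than sampling noise (chi-square per degree of freedom 5.29 to 15.8). A gene and a motif that the plan also listed are not reported here. Promoter windows came from RefSeq (GRCh38.p14).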

Additional observations from a re-analysis of the deposited data

Results flagged for a closer look

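For CP, SERPINA3 and HPX every DNL sample lay above all WT samples and every OA sample lay below them, so the treatments differed from WT in opposite directions. This order is not particular to the members: SERPINA1, A2M, C3, TF and ALB had it too. Its share among all tested genes was not computed. The difference between the effects, tested as DNL against OA with edgeR's quasi-likelihood test, was 5.49 for CP (adjusted p = 3.98e-15), 3.42 for SERPINA3 (adjusted p = 3.28e-14) and 2.19 for HPX (adjusted p = 5.75e-07), on the log2 scale. These 3 were flagged for that order together with an adjusted p under 0.05 in this same test. The p-values therefore add no separate support. For HPX the fall in OA against WT (-0.59, adjusted p = 0.0209) kept its sign under all alternatives, from -0.80 to -0.47, but lost its call under 3 of them, among them the fit without OA replicate 2 (-0.47, adjusted p = 0.103).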

How the results depend on the processing

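Of 21 member results (7 genes in 3 comparisons), 20 kept direction and call under every alternative, and none of the 369 alternative values reversed or moved by over 1.5 times. The exception was HPX in OA against WT, at -0.59. It lost its call with only the compared groups in the fit (-0.57, adjusted p = 0.0656), and without OA replicate 2 or WT replicate 1, and it ran from -0.80 to -0.47 over all alternatives. The cause was not tested. With library totals in place of TMM the median of all genes was -0.18 in DNL against WT and -0.22 in DNL against OA, and 32.2% and 33.9% of calls were higher in place of 50.3% and 50.8%, while the members kept their directions. Same-numbered samples shared little deviation over all genes (correlations -0.0212 to 0.106, and -0.108 to 0.0574 for other numbers). This does not settle whether the numbers pair samples. ORM1 fell from replicate 1 to replicate 3 in all 3 groups. With a replicate block its adjusted p (edgeR) was 1.01e-08 in DNL against WT and 7.69e-11 in OA against WT. With the replicate block 3644 genes were higher and 3601 lower in DNL against WT, 4077 and 4022 in OA against WT, and 4303 and 4169 in DNL against OA, and no member's call changed. SAA1 plus SAA2 gave only the counts of SAA2, since SAA1 was at 0. Summing SAA4 with SAA2-SAA4 was chosen after seeing the data. LBP, ITIH4 and SAA1 did not pass the low-count filter and were not tested, and their counts limit what can be said of them. Without a low-count filter LBP had an adjusted p of 0.0459 in DNL against WT and 0.185 in OA against WT (edgeR).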
